A study of Mus musculus with 6 samples.

Results

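The genes described here are Bnip3 and 8 genes that work with it in mitophagy, the removal of mitochondria by autophagy: Bnip3l, Fundc1, Pink1, Sqstm1, Map1lc3a, Map1lc3b, Gabarapl1 and Becn1. They are 9 of the 35968 genes with a transcript in the deposited files, and all 9 were among the 13221 genes that passed the filter on low counts. Bnip3 was chosen by its measured value, a much higher RNA level in co-culture in these same libraries, so its own change is given as a description without a test. The other 8 were chosen for their known roles in the pathway.
RNA was sequenced from MS-5 cells, a mouse bone marrow stromal line, kept alone (MO1, MO2 and MO3) or kept for 24 h with the human acute myeloid leukaemia (AML) line SKM-1 (MC1, MC2 and MC3). Co-cultures held 4 AML cells for each stromal cell. The labels name no other treatment or genetic change in either group, and the model is of 1 stromal line with 1 AML line. Leukaemic cells were washed off and loosened with mild trypsin before the stromal RNA was collected. Reads were assigned to an index of mouse transcripts, and the methods describe no step that set human reads apart.

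Mitochondria that are damaged or no longer needed can be marked for autophagy in 2 main ways. In the first, receptors that sit in the outer mitochondrial membrane (BNIP3, its close relative BNIP3L, also called NIX, and FUNDC1) bind ATG8-type proteins on the growing autophagosome directly. In the second, the kinase PINK1 builds up on damaged mitochondria and leads to their coating with ubiquitin, to which adaptors such as SQSTM1 (p62) bind. The proteins encoded by Map1lc3a, Map1lc3b and Gabarapl1 belong to the ATG8 family, and BECN1 is part of the lipid kinase complex that starts the autophagosome membrane. Bnip3 is a textbook target of hypoxia-inducible factor (HIF).

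Because HIF binds DNA at a short core whose letters are ACGTG or GCGTG, both were searched on both strands in the 250 bases before the RefSeq start of each gene (GRCm38.p6). Windows were at hand for 6 of the 9 genes (Bnip3, Fundc1, Pink1, Sqstm1, Map1lc3b and Gabarapl1). The windows of Bnip3 and Map1lc3b are shown because each held 5 matches, the most among the 6, and because Bnip3 RNA was much higher in co-culture while Map1lc3b RNA did not pass the test described below. Capitals mark the matches, and on the opposite strand ACGTG and GCGTG read CACGT and CACGC.
Bnip3: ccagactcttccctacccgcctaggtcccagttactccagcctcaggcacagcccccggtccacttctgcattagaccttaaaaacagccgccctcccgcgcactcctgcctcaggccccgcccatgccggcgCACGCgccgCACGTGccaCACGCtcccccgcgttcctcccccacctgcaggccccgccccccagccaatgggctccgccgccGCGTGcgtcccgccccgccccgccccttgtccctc
Map1lc3b: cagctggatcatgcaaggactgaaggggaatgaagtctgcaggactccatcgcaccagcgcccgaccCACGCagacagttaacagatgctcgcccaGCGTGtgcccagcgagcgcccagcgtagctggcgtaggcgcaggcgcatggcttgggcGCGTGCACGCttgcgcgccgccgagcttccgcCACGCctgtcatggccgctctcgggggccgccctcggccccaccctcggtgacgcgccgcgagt
The Bnip3 window lies on the minus strand of chr7:138909507-138909756, and the GENCODE start of the gene falls inside it. Its ACGTG matches are the same palindrome, CACGTG, read on each strand between positions -108 and -103 from the start. The GCGTG matches lie at -117 to -113 and -99 to -95 on the opposite strand and at -35 to -31 on the strand of the gene. Map1lc3b, on the plus strand at chr8:121590188-121590437, held 5 GCGTG and no ACGTG matches. Pink1 held 1 GCGTG, and the windows of Fundc1, Sqstm1 and Gabarapl1 held 0 of either. The GENCODE start of Fundc1 (17572325) falls outside its window (chrX:17572008-17572257, minus strand). The bases before that start were not searched. Among all 32851 windows of this length, 16.6% held ACGTG, 28.2% held GCGTG, 38.6% held either, and 1.01% held 5 or more matches. The Bnip3 window was also rich in G and C, at 72.4%, and that of Map1lc3b stood at 69.6%. A match of letters shows neither that HIF binds there nor that it acts on the gene.

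Total estimated counts ranged from 23978881 to 35694987 per library. MO2 and MC3 stood apart from the other 4 libraries: 65170 and 66456 transcripts had a count, against 51533 to 57350, the mitochondrial chromosome took 6.03% and 5.89% of counts, against 10.5% to 13.1%, and transcripts annotated as retaining an intron took 3.37% and 3.41%, against 1.48% to 1.63%. There is 1 such library in each group and no label names a batch, so the values of the 9 genes are also given without them. Stromal markers were high in every library (14 genes, 9070 to 12539 summed CPM), although Lum and Dcn were at 0 to 2 counts. Of 20 leukocyte markers, 14 had all co-culture libraries above all MS-5 only libraries, as had 11.6% of all genes tested. Of the 17 tested, 10 passed the threshold used below (edgeR adjusted p under 0.1) and were higher, and the median log2 fold change of the 17 was 4.62. The summed level of all 20 was 70.5 to 91.5 CPM in MS-5 only and 138, 475 and 142 in MC1, MC2 and MC3, and Irf8 was at 0 in all MS-5 only libraries. CPM are read counts scaled to a common library total (TMM method).

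Of the 9 genes, Bnip3 had the largest difference between the groups. Bnip3 (ENSMUSG00000078566, GRCm38 chromosome 7, 138890836 to 138909519, minus strand) was at 23.3, 31.6 and 33.9 CPM in MO1, MO2 and MO3. In MC1, MC2 and MC3 it was at 214, 176 and 178 CPM. All co-culture libraries lay far above all MS-5 only libraries, and the spread inside each group was small beside the gap. The mean was 29.6 ± 5.57 CPM in cells cultured alone and 189 ± 21.4 CPM in co-culture (SD, n = 3 each), which is 6.4-fold. The fitted log2 fold change was 2.68 (SE 0.19). By this value Bnip3 ranked 10th of the 11071 genes with at least 1 CPM in every MS-5 only library, and 516th of all genes tested. In all genes tested the median log2 fold change was -0.02. In bulk RNA, a change in the mix of cells and a change in RNA per cell cannot be told apart.
The difference was present in the libraries that stood apart, with log2 differences of 2.49 for MC3 over MO2 and 2.79 for the other 4 libraries. In MC2, where the leukocyte markers were highest, the excess of Bnip3 over MS-5 only was 0.883 times the mean excess of MC1 and MC3, and that of Bnip3l was 0.985 times. The same ratio was 1.8 for Pink1, 1.43 for Map1lc3b, 2.12 for Gabarapl1 and 6.17 for Map1lc3a. Of these, Pink1, Gabarapl1 and Map1lc3a were at their highest in MC2. The ratio was 0.222 for Becn1, -1.23 for Fundc1 and -25.2 for Sqstm1. It is unstable where the excess of MC1 and MC3 is small. In Map1lc3a, MC3 (52.7 CPM) lay below the MS-5 only mean (62 CPM). Of the 31-base words in the Bnip3 transcripts, 20.3% occur in other genes, mostly the pseudogenes Gm16439 and Gm6532. These held at most 25 counts in any library against at least 584 for Bnip3. The part of leukocyte-marker RNA and of human RNA in the values of the 9 genes was not tested.
Nearly all Bnip3 counts came from its 2 protein-coding transcripts, which took 99.1% to 100.0% in every library. Bnip3-201 alone held 80.1% to 88.4% and Bnip3-203 held 11.6% to 19.9%, with the ranges of the groups overlapping.

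**Figure D1:**
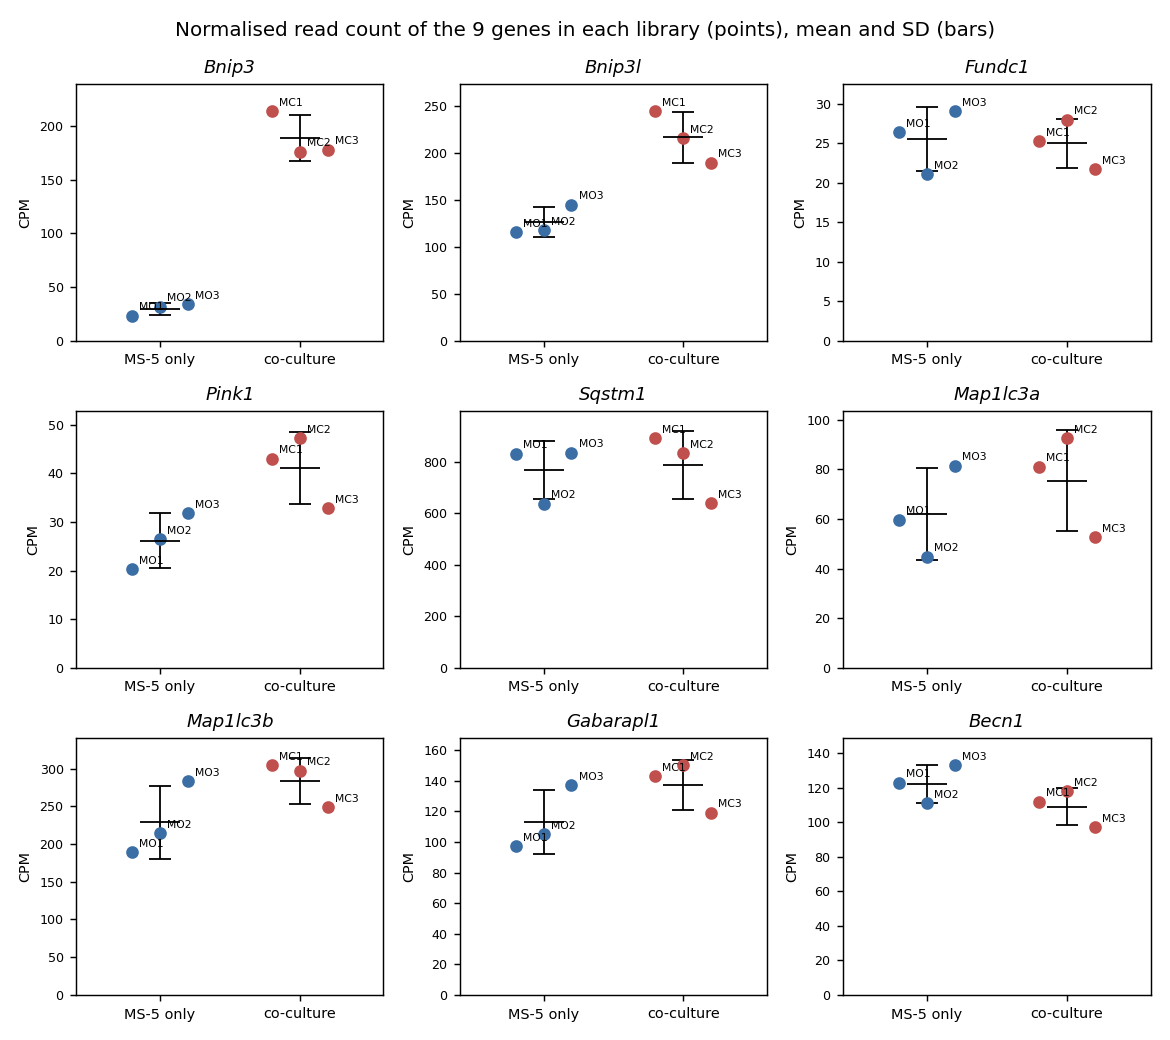
Normalised read counts (CPM, vertical axes from 0) of the 9 genes in MS-5 only (blue) and co-culture (red) libraries. Points are libraries and bars are the mean and SD (n = 3). Co-culture libraries of Bnip3, Bnip3l and Pink1 sit above all MS-5 only libraries, from 32.8 against at most 31.8 CPM in Pink1 to 176 against at most 33.9 CPM in Bnip3. The same holds for 11.6% of all genes tested.

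Of the other 8 genes, 1 passed the threshold (edgeR's quasi-likelihood test, Benjamini-Hochberg adjusted p under 0.1): Bnip3l rose in co-culture. Over all genes tested, 4.38% passed it, 3.71% higher and 0.666% lower, a balance that turned towards lower calls with a covariate for MO2 and MC3 (13.9% higher and 16.4% lower). Bnip3l (ENSMUSG00000022051, chromosome 14, 66985239 to 67008877, minus strand), the second BNIP3-type receptor, was at 116, 118 and 145 CPM in MS-5 only and at 245, 216 and 190 CPM in MC1, MC2 and MC3. The groups did not overlap, as was so in this direction for 11.6% of all genes tested. The means were 126 ± 16.4 and 217 ± 27.2 CPM (SD, n = 3 each), or 1.72-fold. The fitted log2 fold change was 0.78 (SE 0.16, 95% interval 0.39 to 1.17, edgeR adjusted p = 0.0854). Without MO2 and MC3 it was 0.84 (edgeR adjusted p = 0.077), where 13% of all genes passed. The log2 difference was 0.69 for MC3 over MO2 and 0.83 for the other 4 libraries. Over all alternatives its adjusted p ran from 0.000173 (DESeq2) to 0.332 (a block for the replicate number). The call was lost when MO1, MO2, MO3, MC1 or MC2 was left out, with fold changes on the log2 scale of 0.67 to 0.89 and edgeR adjusted p from 0.149 to 0.3. It held only without MC3 among these (edgeR adjusted p 0.078). Without MO1, MO2 or MO3, 0 of all genes passed, so that loss was not particular to Bnip3l. Without MC1 and MC2, 283 and 281 of all genes passed. The pseudogene Bnip3l-ps, which shares 23.7% of the 31-base words, held at most 5 counts.

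Bnip3 and Bnip3l could be compared by TPM, which corrects for transcript length. In MS-5 only, Bnip3 was at 19.3%, 28.9% and 25.1% of the Bnip3l level in MO1, MO2 and MO3. In MC1, MC2 and MC3 it was at 94.9%, 82.0% and 101.0%. Bnip3l was thus the higher of the pair by a wide margin in MS-5 only, and the levels were close in every co-culture library. Their summed level was 121, 196 and 156 TPM in MS-5 only and 388, 321 and 499 TPM in co-culture. On the same scale, Bnip3 stood 7th of the 9 by mean TPM in MS-5 only and 4th in co-culture. In MS-5 only the order was Sqstm1 (524 TPM), Map1lc3b (202), Becn1 and Bnip3l (126 each), Map1lc3a (99.3), Gabarapl1 (89.2), Bnip3 (31.6), Fundc1 (26.6) and Pink1 (16.5). Neighbours that did not differ beyond their SD were Becn1 and Bnip3l, Map1lc3a and Gabarapl1, and Bnip3 and Fundc1. In co-culture the order was Sqstm1 (543 TPM), Map1lc3b (228), Bnip3l (208), Bnip3 (195), Map1lc3a (117), Becn1 (110), Gabarapl1 (105), Fundc1 (28.0) and Pink1 (25.1). Here Map1lc3b, Bnip3l and Bnip3 formed a run of neighbours within their SD, as did Map1lc3a, Becn1 and Gabarapl1, and Fundc1 and Pink1.

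**Figure D2:**
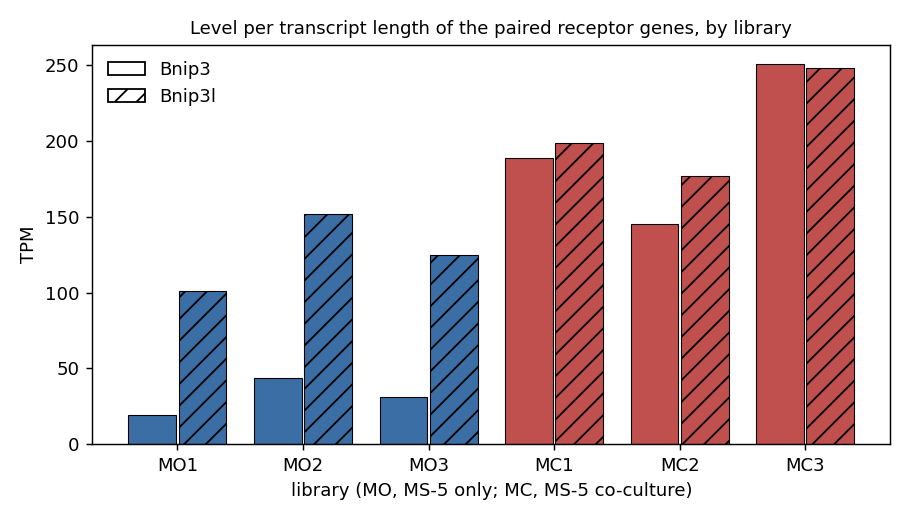
Levels per transcript length (TPM, vertical axis from 0) of Bnip3 (plain bars) and Bnip3l (hatched bars) in each library. Bnip3 is at 19.3% to 28.9% of Bnip3l in the MS-5 only libraries (blue) and at 82.0% to 101.0% in the co-culture libraries (red).

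Fundc1 (chromosome X, 17556564 to 17572325, minus strand), the third receptor, was at 26.4, 21.1 and 29.1 CPM in MS-5 only and at 25.3, 28.0 and 21.7 CPM in MC1, MC2 and MC3. The groups overlapped fully. Its log2 fold change was -0.03 (SE 0.18, 95% interval -0.45 to 0.39, edgeR adjusted p = 0.983), and its sign turned to 0.07 on log2(TPM + 0.5) with limma. Without MO2 and MC3 it was -0.04.
Pink1 (chromosome 4, 138313409 to 138326307, minus strand), the kinase that marks damaged mitochondria, was at 20.3, 26.4 and 31.8 CPM in MS-5 only and at 43.0, 47.2 and 32.8 CPM in MC1, MC2 and MC3. Every co-culture library was above every MS-5 only library, MC3 only just above MO3, and the highest value was in MC2, the library with the most leukocyte-marker RNA, whose part in it was not tested. Over all genes tested, groups failed to overlap in this direction in 11.6%. The means were 26.2 ± 5.75 and 41.0 ± 7.41 CPM (SD, n = 3 each), or 1.57-fold, and the log2 fold change was 0.65 (SE 0.22, 95% interval 0.12 to 1.17). Its edgeR p was 0.0232 before and 0.236 after adjustment, so it did not pass. With a covariate for MO2 and MC3 the edgeR adjusted p was 0.0626, where 30.2% of all genes passed, and with DESeq2's Wald test it was 0.0932, where 9.62% passed. Over all alternatives the adjusted p of Pink1 ran from 0.0626 to 0.593. The log2 difference was 0.31 for MC3 over MO2 and 0.83 for the other 4 libraries, and without MO2 and MC3 the fit gave 0.81 (edgeR adjusted p = 0.105).

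Sqstm1 (chromosome 11, 50199366 to 50210827, minus strand), the ubiquitin-binding adaptor, had the highest level per length of the 9. It was at 831, 636 and 834 CPM in MS-5 only and at 890, 833 and 639 CPM in MC1, MC2 and MC3. Its groups overlapped, and the lowest library of each was MO2 and MC3. The log2 fold change was 0.04 (SE 0.22, 95% interval -0.50 to 0.57, edgeR adjusted p = 0.983), and it changed sign when MO2, MC1 or MC2 was left out. Without both MO2 and MC3 it was 0.07.
Map1lc3a (chromosome 2, 155276297 to 155278073, plus strand) was at 59.7, 44.7 and 81.4 CPM in MS-5 only and 81.1, 92.5 and 52.7 CPM in co-culture. The fitted log2 fold change was 0.28 (SE 0.29, 95% interval -0.41 to 0.98, edgeR adjusted p = 0.781). It had the widest interval of the 9, with MO2 and MC3 lowest in their groups. Without these libraries the log2 fold change was 0.32, and MC3 over MO2 gave 0.24. Leaving out single libraries moved the fitted value between 0.09 and 0.53.
Map1lc3b (chromosome 8, 121590361 to 121598760, plus strand), whose protein is the usual marker of autophagosomes, was at 189, 214 and 283 CPM in MS-5 only and 304, 297 and 249 CPM in co-culture. MC3 lay below MO3, but above MO2, and MC1 and MC2 lay above all MS-5 only libraries. The log2 fold change was 0.31 (SE 0.20, 95% interval -0.17 to 0.79, edgeR adjusted p = 0.578). The log2 difference was 0.21 for MC3 over MO2 and 0.38 for the other 4 libraries. The fit without MO2 and MC3 gave 0.37 (edgeR adjusted p = 0.307), and fits without single libraries gave 0.21 to 0.49. Of its 31-base words, 8.52% occur in other genes, most often in the pseudogenes Gm6055, Gm12727 and Gm6054, of which Gm6055 held at most 57 counts. Map1lc3b also overlaps Zcchc14 on the opposite strand and Gm20388 on its own strand.
Gabarapl1 (chromosome 6, 129533160 to 129542346, plus strand) was at 97.3, 105 and 137 CPM in MS-5 only and 143, 150 and 119 CPM in co-culture. Again MC3 lay below MO3 and above MO2, and MC1 and MC2 lay above all MS-5 only libraries. Its log2 fold change was 0.28 (SE 0.18, 95% interval -0.15 to 0.71, edgeR adjusted p = 0.581). The log2 difference was 0.18 for MC3 over MO2 and 0.34 for the other 4 libraries. The fit without MO2 and MC3 also gave 0.34 (edgeR adjusted p = 0.289), and fits without single libraries gave 0.20 to 0.44.
Within the ATG8 family, Gabarap, which is not one of the 9, took the largest share of the summed TPM in every library, 36.6% to 47.0%, followed by Map1lc3b at 22.6% to 28.9%. Gabarapl1 held 10% to 13.8% and Map1lc3a 11.6% to 14.5%.
Becn1 (chromosome 11, 101285952 to 101302286, minus strand) was at 123, 111 and 133 CPM in MS-5 only and at 112, 118 and 97.3 CPM in co-culture. MC3 alone lay below all MS-5 only libraries. The log2 fold change was -0.17 (SE 0.14, 95% interval -0.50 to 0.17, edgeR adjusted p = 0.706), and -0.13 without MO2 and MC3. With single libraries left out it lay between -0.24 and -0.09.
For Fundc1, Sqstm1, Map1lc3a, Map1lc3b, Gabarapl1 and Becn1, each interval lay inside 1 log2 unit in either direction. A p above the threshold does not show that their RNA was the same in both groups. With 3 libraries against 3, an exact permutation test of a single gene could not go below p = 0.1.

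**Figure D3:**
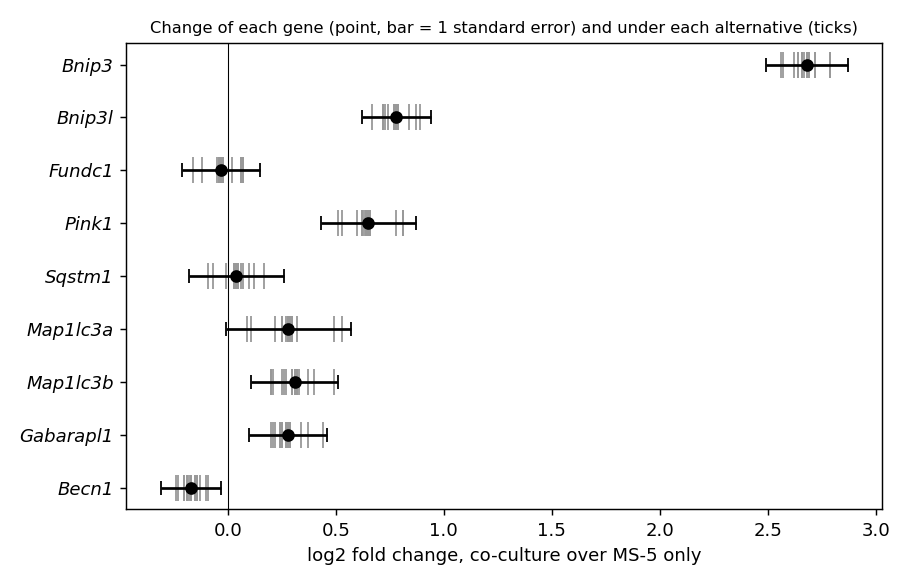
Log2 fold change of each gene in co-culture over MS-5 only (horizontal axis), with points for the reported fit, bars of 1 SE, and grey ticks for the same value under each alternative processing and with each library left out. Bnip3 stays between 2.56 and 2.79 when single libraries are left out, Fundc1 and Sqstm1 cross 0, and no tick turns the sign of Bnip3l or Pink1.

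For Becn1, the transcripts behind the counts differed between libraries. Transcripts annotated as retaining an intron took 20.4%, 46.9% and 20.1% of its counts in MO1, MO2 and MO3, and 19.0%, 19.9% and 46.3% in MC1, MC2 and MC3. Those annotated as targets of nonsense-mediated decay moved the other way, with 60.1%, 35.6% and 62.5% against 64.1%, 64.9% and 38.2%. Protein-coding transcripts took only 14.7% to 19.4% in every library. MO2 and MC3 were thus set apart in Becn1 as they were over all transcripts, and there was 1 such library in each group.
Map1lc3b showed the same 2 libraries apart at a lower level: retained-intron transcripts took 4.91% in MO2 and 6.19% in MC3, against 0.451% to 0.607% in the rest. For Map1lc3a, the protein-coding transcript held 43.0% in MO2 and 47.1% in MC3, against 50.7% to 59.7% in the other libraries. Summing genes without retained-intron transcripts, a choice made after these values were seen, gave a log2 fold change of -0.14 for Becn1 and 0.31 for Map1lc3b. Of the 31-base words of Becn1, 40.0% also occur in other genes, chiefly Cntd1 on the opposite strand, which held at most 7 counts.

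**Figure D4:**
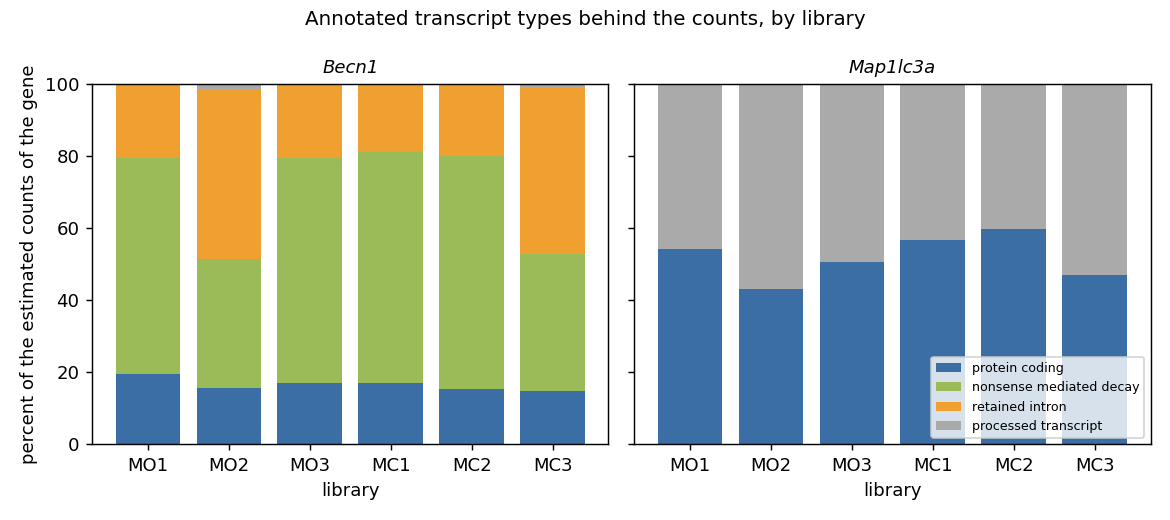
Percent of the estimated counts of Becn1 and Map1lc3a in each library (vertical axis, from 0 to 100) by annotated transcript type, in stacked bars. MO2 and MC3 stand apart in Becn1, with 46.9% and 46.3% in retained-intron transcripts against 19.0% to 20.4% elsewhere.

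The other genes of the pathway were taken from lists of known members. Of 20 further mitophagy receptors, adaptors and regulators, 19 were tested and 0 passed edgeR's adjusted threshold, and 0 did by DESeq2. At an unadjusted p under 0.05 there were 2, against 14.3% of all genes tested. In the fit with a covariate for MO2 and MC3 there were 8 (3 higher and 5 lower), where 30.2% of all genes passed, and without these libraries 4 passed (3 higher and 1 lower), where 13% did. Their median log2 fold change was -0.13, against -0.02 over all genes. Those with the largest differences were Calcoco1, an autophagy receptor (0.65, SE 0.34, adjusted p 0.463), Pgam5, a mitochondrial phosphatase (-0.50, SE 0.19, adjusted p 0.287), and Tollip, a ubiquitin-binding adaptor (-0.43, SE 0.15, adjusted p 0.255).
Among 31 genes of autophagosome formation and ATG8 conjugation, all tested, 1 passed, a share below the 4.38% of all genes. At an unadjusted p under 0.05 lay 3 of the 31, against 14.3% of all genes. Wdr45, a membrane-binding partner of ATG2, rose by 0.57 on the log2 scale (SE 0.13, edgeR adjusted p = 0.0938). It was at 23.2, 28.0 and 26.6 CPM in MS-5 only and at 38.4, 40.5 and 36.8 CPM in co-culture. Wipi1, of the same family, was at 0.53 (SE 0.14, edgeR adjusted p = 0.123), and Atg5 at -0.40 (adjusted p 0.623). The list's median was 0.01. The call of Wdr45 was lost when any 1 library was left out, though without MO1, MO2 or MO3 0 of all genes passed. Without both MO2 and MC3 Wdr45 passed (0.69, edgeR adjusted p 0.077).
Of 24 lysosome genes 0 passed by edgeR or DESeq2, also 0 at an unadjusted p under 0.05, where 14.3% of all genes lay, with a median of -0.02. The largest differences were those of Neu1 (0.56, adjusted p 0.589), Gusb (-0.40, adjusted p 0.472) and Atp6v1h (-0.39, adjusted p 0.435).
The list of mitochondrial import, outer membrane, fusion and fission genes had 0 of 20 past the threshold by edgeR or DESeq2 and 0 at an unadjusted p under 0.05, against the same 14.3%. Its median was -0.26 and 16 of its 20 values were negative. Tomm40 (-0.54, adjusted p 0.472), Timm23 (-0.51, adjusted p 0.645) and Mfn2 (-0.50, adjusted p 0.394) were furthest from 0, and each was lowest in MO2 and MC3 within its group. With a covariate for these libraries 11 of the 20 were lower, where 16.4% of all genes were, and without them 2 were lower, where 4.71% of all genes were.
BNIP3 is named for its binding to proteins of the BCL-2 family, which controls the mitochondrial path of cell death. Of 17 genes of that family and of its BNIP namesakes (Bnip1 and Bnip2), 13 were tested and 1 passed, beside 4.38% of all genes (0.666% lower). At an unadjusted p under 0.05 lay 4 of the 13, against 14.3% of all genes. Bid, a trigger of that path, fell by 0.65 on the log2 scale (value -0.65, SE 0.12, edgeR adjusted p = 0.0734). It was at 120, 110 and 127 CPM in MS-5 only and at 75.5, 79.0 and 73.1 CPM in co-culture. The call was lost when any 1 library was left out, though without MO1, MO2 or MO3 0 of all genes passed. Without both MO2 and MC3 Bid passed (-0.66, edgeR adjusted p 0.077). Bmf (1.15, SE 0.34, adjusted p 0.173) and Bok (-0.85, SE 0.30, adjusted p 0.248) had larger values and did not pass.

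Of 14 transcription factors known to act on Bnip3 or its partners, 13 were tested and 1 passed, beside 4.38% of all genes (3.71% higher). At an unadjusted p under 0.05 lay 2 of the 13, against 14.3% of all genes. Foxo3, a factor known to act on Bnip3 and Bnip3l, rose by 0.59 on the log2 scale (SE 0.14, edgeR adjusted p = 0.0951), from 54.4, 60.0 and 66.6 CPM to 96.2, 93.4 and 82.3 CPM. That call, too, was lost when any 1 library was left out, though without MO1, MO2 or MO3 0 of all genes passed. Without both MO2 and MC3 Foxo3 passed (0.67, edgeR adjusted p 0.0778). Trp53 (-0.52, adjusted p 0.388) and E2f1 (-0.49, adjusted p 0.451) did not pass. Hif1a RNA had a log2 fold change of 0.19, which says nothing of HIF protein, a quantity that was not measured here.
Since Bnip3 is a HIF target, 18 other textbook targets were set beside it. Of 17 tested, 10 passed and all 10 were higher, where 3.71% of all genes tested were. The median log2 fold change of the 17 was 1.08. At an unadjusted p under 0.05 lay 14 of the 17, against 14.3% of all genes. Those past the threshold were Pdk1 (2.19, edgeR adjusted p = 0.0269), Ankrd37 (2.14), P4ha1 (1.33), Slc2a1 (1.42), Mxi1 (1.40), Egln1 (1.10), Ndrg1 (1.08), Ddit4 (1.07), Ero1l (0.83) and Adm (0.82), the rest with edgeR adjusted p from 0.0734 to 0.0968. Pdk1, the kinase that inhibits the pyruvate dehydrogenase complex, was at 27.5, 27.2 and 32.1 CPM in MS-5 only and at 148, 116 and 133 CPM in co-culture. The 7 that did not pass ranged from -0.42 (Car9) to 1.18 (Pfkfb3). The log2 value of Bnip3, 2.68, lay above those of all 17. Bnip3 was chosen for its rise in these same libraries, so this is a description, and the difference was not tested. When MO1, MO2 or MO3 was left out 0 of them passed, as did 0 of all genes, and 4, 6 and 9 passed without MC1, MC2 and MC3. This list was drawn up with results of these data known.

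**Figure D5:**
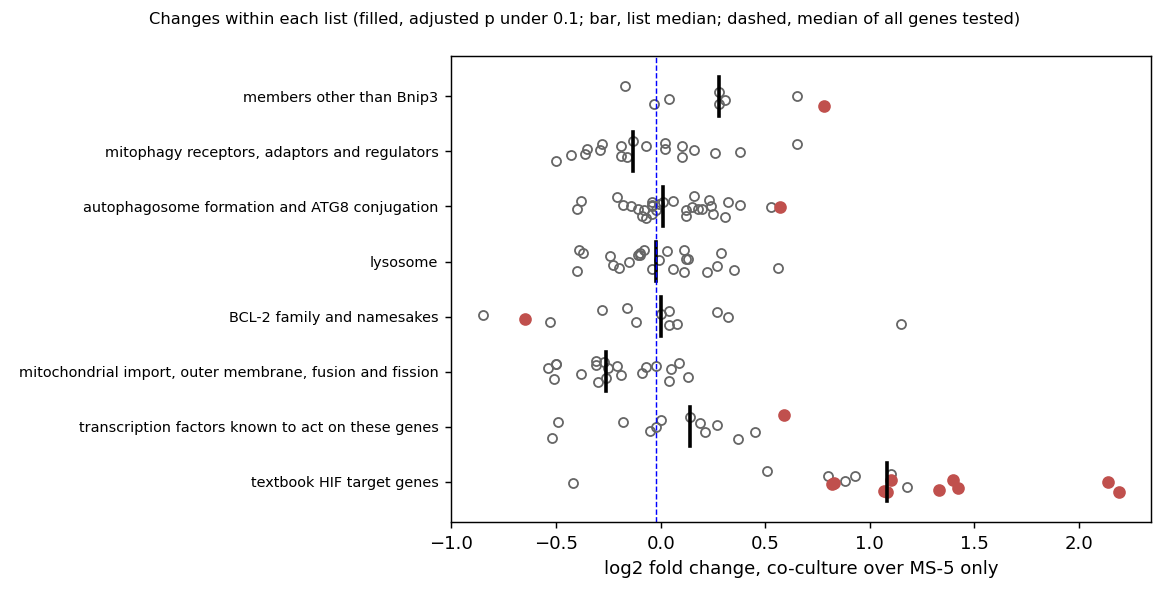
Log2 fold changes of the genes in each list (horizontal axis, co-culture over MS-5 only), with 1 circle a gene, filled where the edgeR adjusted p was under 0.1. Black bars are list medians and the dashed line is the median of all genes tested (-0.02). The HIF target list has its median at 1.08 and the mitochondrial list at -0.26.

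The pattern of Bnip3 over the 6 libraries was compared with all other genes by Pearson's r of log2 CPM, as a description. The libraries fall into 2 groups, so r mainly reflects the gap between them. Closest were Ppp1r18 (r = 0.998), Susd1 (0.994), Pdk1 (0.994), Ndufa4l2 (0.993) and Lrtm2 (0.991), and 4.4% of genes had an r over 0.9. Only Ndufa4l2 was among the closest 5 on log2(TPM + 0.5). Ndufa4l2, which encodes a mitochondrial protein related to a respiratory chain subunit, was at 5.27, 5.35 and 8.02 CPM in MS-5 only and at 68.6, 44.2 and 45.6 CPM in co-culture. Among the members, r with Bnip3 was 0.96 for Bnip3l, 0.85 for Pink1, 0.72 for Map1lc3b, 0.68 for Gabarapl1, 0.40 for Map1lc3a, 0.09 for Sqstm1, -0.07 for Fundc1 and -0.57 for Becn1.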

How the data were processed

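RNA-seq of 3 libraries of MS-5 cells cultured alone and 3 from co-culture was used, grouped by the sample labels. The authors quantified reads with kallisto 0.43.0 against a mouse cDNA index (GRCm38) and deposited estimated counts and TPM per transcript, without pooling or normalising the estimated counts between libraries. The deposited lengths and effective lengths, in bases, served only for a length correction. The kit is stranded. The strand setting of the counting is not given in the sources used here. The methods name 2 sequencing instruments in different places.

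Of 118489 transcripts, 116728 matched GENCODE M21 by version and length, and the other 1761 (0.476% to 0.562% of counts) were left out. Estimated counts were summed per gene, rounded, filtered with filterByExpr and scaled by TMM (factors 0.923 to 1.17). Groups were compared over 13221 genes with the quasi-likelihood test of edgeR 4.0.16 in R 4.3.3. P-values were adjusted by Benjamini-Hochberg and called under 0.1, the level in the study's results text, while its methods name a stricter one. The alternatives were DESeq2 1.42.0, limma 3.58.1 on log2(TPM + 0.5), and the others in the closing section. Sleuth, the authors' tool, was not used here. Nothing in the labels says that the libraries came from separate cultures, so p-values measure only the spread between these libraries, which may be technical.

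The 9 genes, the lists and the tests were chosen with earlier results of these data known. Named genes are the 9, those past the threshold and the 3 largest differences in each list, and the 5 most like Bnip3. Marker lists are given as sums. Irf8, Lum, Dcn, Car9, Pfkfb3, Hif1a, Gabarap and genes that share reads with the 9 were named beyond that rule after their values were seen. Depth limits genes with few counts. Some results are left out here.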

Additional observations from a re-analysis of the deposited data

How the results depend on the processing

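Bnip3 kept its direction under all 19 alternatives run for it, between 2.56 and 2.79 on the log2 scale without single libraries. Bnip3l was higher under all 20 run for it, but passed the threshold in 8. Members past it other than Bnip3 numbered 1, against 2 with DESeq2's Wald test or a covariate for MO2 and MC3. They numbered 0 with limma on log2(TPM + 0.1), log2(TPM + 0.5) and log2(TPM + 1), with no filter, with an effective length offset or at an adjusted p under 0.05, and 0 to 1 without single libraries. Bnip3l alone had an adjusted p of 0.169 to 0.214 with limma, 0.1 with no filter (just over the threshold) and 0.118 with the offset. Fundc1 turned to 0.07 with limma and 0.06 with the offset, and lay between -0.16 and 0.07 without single libraries, as Sqstm1 did between -0.09 and 0.17. All genes passing numbered 579 (491 higher, 88 lower), and 1268 with DESeq2's Wald test, 356 with limma on log2(TPM + 0.5), 3999 with the covariate (1835 higher, 2164 lower), 1702 without MO2 and MC3 (1087 higher, 615 lower), 2 at 0.05 and 0 to 549 without single libraries.
With the covariate, genes past the threshold numbered 8 of 19 (mitophagy), 7 of 31 (autophagosome), 7 of 24 (lysosome), 6 of 13 (BCL-2), 11 of 20 (mitochondrial) and 7 of 13 (transcription factors), where 30.2% of all genes passed. Without MO2 and MC3 they numbered 4, 5, 1, 3, 2 and 3, where 13% of all genes passed. By library size alone they were 1 for mitophagy and 0 for autophagosome and transcription factors, which were also 0 with limma, a minimum of 5 counts, no filter, the offset or 0.05. DESeq2 gave 2 for autophagosome and 3 for BCL-2, and 0.05 gave 0 for BCL-2 and 1 for HIF targets. Without single libraries these lists had 0, and HIF targets 0 to 9. Of the 5 genes most like Bnip3, 1 was shared on log2(TPM + 0.5).
Whether the replicate numbers pair the libraries could not be decided. Deviations from group means correlated across genes at 0.53, -0.29 and -0.52 for equal numbers. They correlated at 0.73 for MO2 with MC3, and the difference of these 2 libraries from the rest weighs on all these values. With the replicate block, 0 members passed (Bnip3l adjusted p 0.332), 444 of all genes (443 higher, 1 lower), 0 autophagosome, BCL-2 and transcription factor genes and 5 HIF targets.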
